A study of Apocynum venetum with 18 samples.

Results

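In leaves of Apocynum venetum sampled over 48 h in salt solution, 133 of 45222 features tested (0.294%) had their highest level at 6 h and were back near the 0 h level at 48 h. A feature is an assembled transcript named by an ID; 53545 were deposited, and several can come from one gene. The 133 were chosen on their mean level at each time, in CPM, counts scaled to a common library total. The highest mean had to be at 6 h, to reach 5 CPM and to be at least 3 times the 0 h mean. The 48 h mean had to be 0.67 to 1.5 times the 0 h mean, and the mean over all libraries had to be under 700 CPM. The height at 6 h and the return at 48 h are therefore descriptions and were not tested.

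Apocynum venetum is a fibre shrub of saline ground. Sodium chloride around the roots first limits water uptake and, as ions build up, becomes toxic to leaf cells, and plants answer with hormone signalling led by abscisic acid, with compatible solutes and with ion transport. Part of the transcript response to salt in plants is known to be transient, and many leaf transcripts also follow the day.

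Plants labelled wild stood in nutrient solution to which 300 mmol/L NaCl had been added, and leaf RNA was sequenced after 0, 2, 6, 12, 24 and 48 h, with 3 libraries for each time. The labels give the salt solution to every group, 0 h included, and although the design text speaks of plants without salt, no library is labelled so. Time in salt can therefore not be told apart from handling or from the hour of day, and 24 h and 48 h fall on the clock hour of 0 h only if the stated hours were kept. Nothing ties a library to a separate plant, so the p-values reflect how far libraries of one time differ, a spread that may be technical. These are libraries of whole leaf tissue, in which fewer cells of a type and less RNA per cell cannot be told apart.

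Total estimated counts ran from 17933939 in 0 h replicate 2 to 24731213 in 48 h replicate 3. Features are called by their IDs because the deposited annotation could not be used. It names 1 of the 133 features (0.752%), against 3458 of all deposited features (6.46%). Of its 829 alignments with a stated length, 269 (32.4%) are longer than 1.1 times the feature they stand on. The leaf label could not be checked against leaf markers for the same reason. The library labelled 0 h replicate 2 and the one labelled 2 h replicate 2 stood apart from the others of their time. In 2 h replicate 2, 22 of the 133 features (16.5%) were below 0.5 times both other 2 h libraries, against 4 each in replicates 1 and 3. Of 24839 tested features with at least 5 CPM in a library, 10.7% were so in replicate 2, 2.99% in replicate 1 and 1.36% in replicate 3. In 0 h replicate 2, 9.49% of the same features were above 2 times both other 0 h libraries, against 2.61% in replicate 1 and 3.56% in replicate 3. Among the 133 these were 12 in replicate 2, 17 in replicate 1 and 1 in replicate 3. Of the 24839, 924 were high in 0 h replicate 2 and low in 2 h replicate 2 by these limits, against 38 and 48 for replicates 1 and 3. The labels of this pair could have been exchanged, which was not tested, so values of 0 h and 2 h, and each comparison of the pair of times, hold only under the labels as given. With both libraries left out the rule chose 134 features, of which 90 were among the 133.

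The course was broad rather than a spike at 6 h. At 2 h the median ratio to the 0 h mean, on CPM scaled by TMM, was 1.53 over the 133 features. It stood at 4.37 after 6 h and 3.12 after 12 h, was down to 1.31 by 24 h and ended at 1.02 by 48 h. In the same order of times, the medians over all tested features were 1.02, 1.00, 1.00, 0.919 and 0.907. In 115 of the 133 the second highest mean was at 12 h, in 15 it was at 2 h, and in 3 at 24 h. The 12 h mean was at least 0.67 of the 6 h mean in 82 features, at least 0.9 of it in 18, and under 0.5 of it in 22. At 24 h, 82 features had a mean of 0.67 to 1.5 times the 0 h mean, 43 were above that range and 8 below it.

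**Figure D1:**
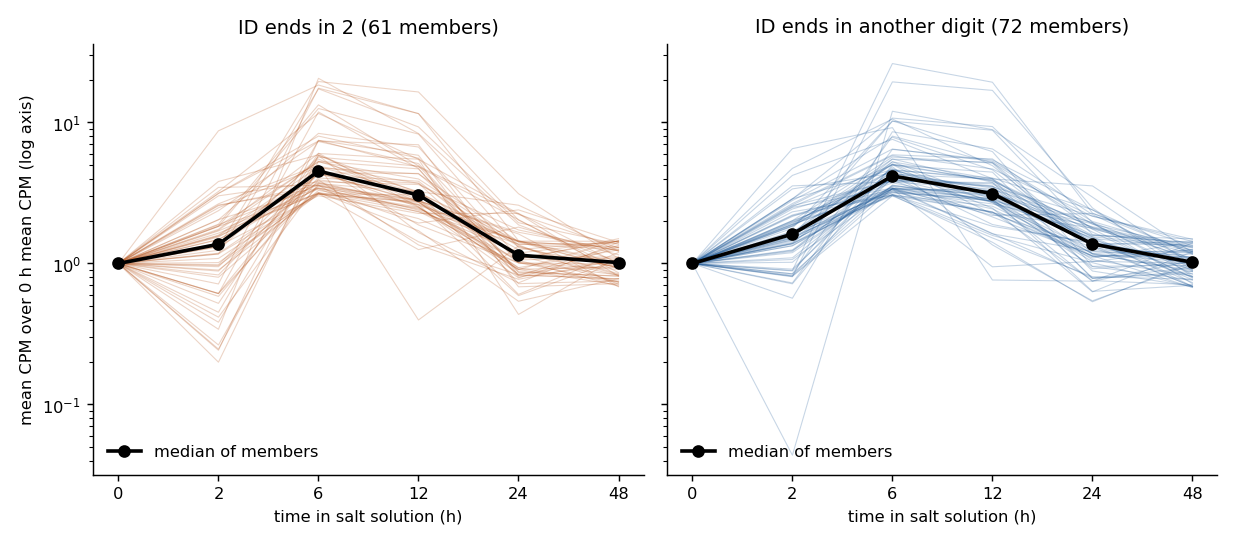
Mean CPM of each of the 133 features as a ratio to its own 0 h mean (log axis) against time in the salt solution (h), 1 thin line a feature, with the median of each panel in black; the 61 features whose ID ends in 2 are on the left and the 72 others on the right. In both panels the lines are highest at 6 h and narrow at 48 h, as the rule requires, most stay high at 12 h, and at 2 h they spread to both sides of 1.

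Mean levels over all libraries had a median of 9.38 CPM for the 133, against 2.64 CPM for all tested features, and the rule set a floor and a cap on level. The median level of the 133 was 4.29 CPM at 0 h, 6.79 CPM at 2 h, 19.7 CPM at 6 h, 12.9 CPM at 12 h, 5.54 CPM at 24 h and 4.42 CPM at 48 h. At 6 h they ran from 5.09 to 432 CPM. The authors' deposited FPKM, a level per transcript length, ran from 1.55 to 371 at 6 h with a median of 13.1. The ratio of 6 h to 0 h was 3 to 4 in 58 features, 4 to 10 in 59 and 10 or more in 16, and the largest was 26.2. The median coefficient of variation among the 3 libraries at 6 h was 46.1% for these features. For all tested features with at least 5 CPM at 6 h it was 20.3%. The rule used the 6 h mean, which 1 high library can lift, so this spread is not independent of the choice. At 12 h the median was 29.7%, against 15.7% for tested features with at least 5 CPM then. The 133 were not so limited, and their 12 h means went down to 0.727 CPM.

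The features with the highest 6 h mean in CPM held both a modest and a steep course. TRINITY_DN11346_c0_g1_i1_8, of 3707 nucleotides, had 172, 151 and 106 CPM at 0 h, then 210, 199 and 262 CPM at 2 h, and 237, 488 and 570.5 CPM at 6 h. It had 294, 195 and 163 CPM at 12 h, 134, 117 and 95.7 CPM at 24 h, and 162, 98.4 and 72.5 CPM at 48 h. Replicate 1 at 6 h was inside the range of the 2 h and 12 h libraries, and the other two 6 h libraries were above every library of any other time. Its mean ratio of 3.01 was just inside the limit of 3. TRINITY_DN7823_c0_g1_i2_5, of 2017 nucleotides, had 34.1, 38.1 and 25.0 CPM at 0 h, then 47.2, 45.5 and 57.8 CPM at 2 h, and 512, 180 and 301 CPM at 6 h. It stayed at 259, 232 and 366 CPM at 12 h, and then had 50.7, 74.7 and 30.8 CPM at 24 h and 50.3, 43.6 and 40.8 CPM at 48 h. Its 6 h and 12 h libraries overlapped each other and lay above all libraries of the 4 other times. Its 6 h mean of 205 FPKM, a level per length, was above the 144 FPKM of TRINITY_DN11346_c0_g1_i1_8.

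TRINITY_DN20234_c0_g2_i3_3, of 3155 nucleotides, was even among libraries at its peak. It had 60.4, 54.4 and 74.6 CPM at 0 h, then 51.0, 144 and 72.8 CPM at 2 h, with 250.5, 244 and 290.4 CPM at 6 h and 226, 218 and 218 CPM at 12 h. At 24 h it was split, with 158, 196 and 56.6 CPM, and at 48 h it had 130.4, 74.0 and 76.7 CPM. Replicate 3 at 24 h thus lay at the 0 h level while the other two 24 h libraries were above every 0 h, 2 h and 48 h library, and its 6 h libraries lay above all 15 others. TRINITY_DN11967_c0_g1_i3_1, of 1845 nucleotides, averaged 62.6 ± 19.0 CPM at 0 h and 66.8 ± 18.2 CPM at 2 h, then 212 ± 66.9 CPM at 6 h and 206 ± 34.7 CPM at 12 h, and lastly 72.8 ± 17.5 CPM at 24 h and 55.8 ± 7.41 CPM at 48 h (SD, n = 3 each). Its level at 12 h was close to that at 6 h, and the libraries of the 4 other times lay below both.

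Among features with at least 10 CPM in each 6 h library, the steepest courses began from a few CPM. TRINITY_DN10788_c0_g1_i1_2, named after its values were seen, had a ratio of 20.6 but missed this floor, with 40.5, 4.75 and 3.20 CPM at 6 h. TRINITY_DN10106_c0_g1_i1_7, of 1313 nucleotides, had 1.31, 4.07 and 1.93 CPM at 0 h, then 2.64, 1.34 and 2.53 CPM at 2 h, and 106, 30.8 and 53.8 CPM at 6 h. At 12 h it had 48.0, 30.8 and 62.1 CPM, at 24 h 5.46, 8.76 and 2.40 CPM, and at 48 h 2.94, 4.96 and 0.720 CPM. No rise was seen at 2 h, and the 6 h and 12 h libraries lay far above all others. TRINITY_DN17136_c0_g1_i3_2 (1876 nucleotides, ratio 19.5) had 1.88, 1.13 and 0.843 CPM at 0 h, then 47.1, 10.3 and 17.8 CPM at 6 h, and 15.7, 25.5 and 22.1 CPM at 12 h. TRINITY_DN1399_c0_g1_i1_4 (2295 nucleotides, ratio 19.4) had 2.33, 1.03 and 0.602 CPM at 0 h, then 49.5, 12.9 and 14.4 CPM at 6 h, and 7.74, 26.4 and 32.8 CPM at 12 h. In both, replicate 1 at 6 h was more than 2 times the other two 6 h libraries, and the 12 h mean was above each of the other two. TRINITY_DN18263_c0_g1_i5_2 (4834 nucleotides, ratio 17.3) differed in this, with 2.74, 4.02 and 6.10 CPM at 0 h, 61.6, 96.9 and 64.3 CPM at 6 h and 28.1, 51.1 and 40.3 CPM at 12 h, so that its 6 h libraries, too, lay above all 15 others.

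**Figure D2:**
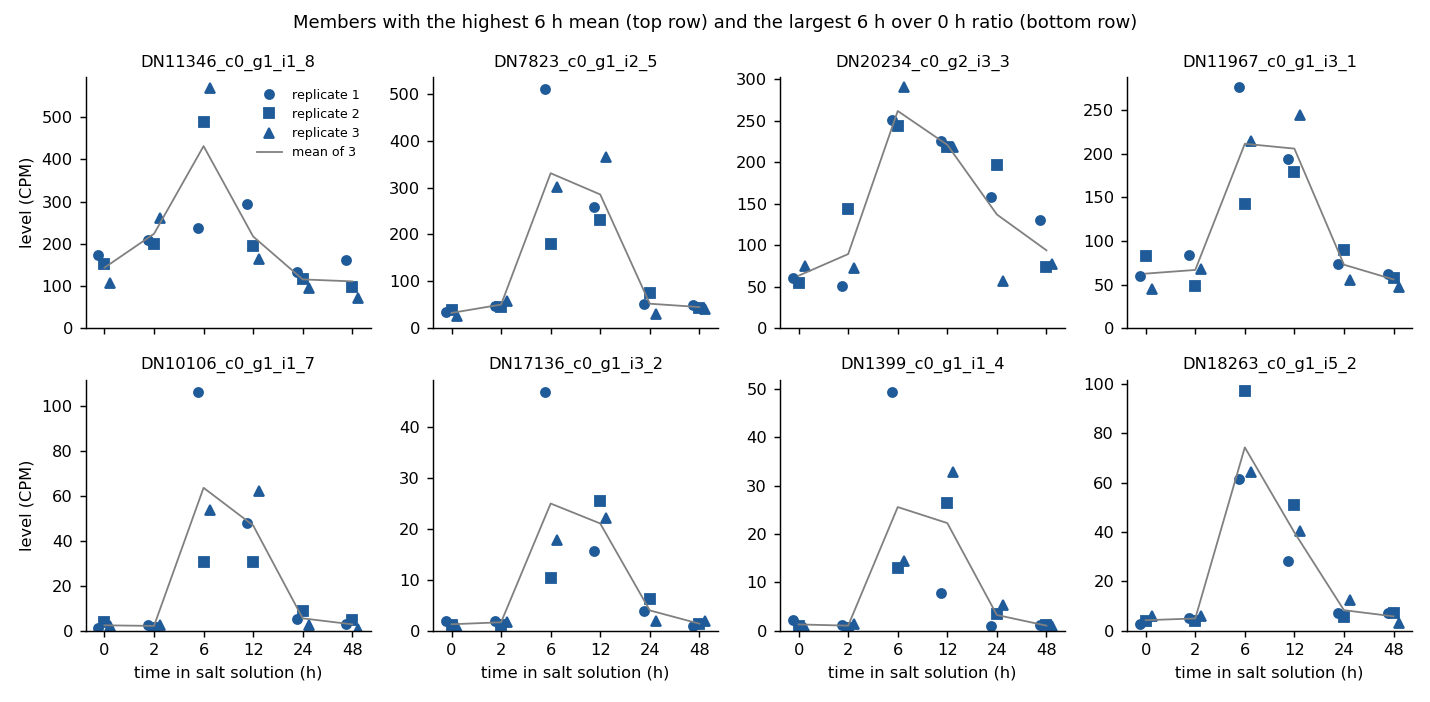
Level in CPM against time in the salt solution (h), 1 point a library and a line through the means of 3. The upper row holds the 4 features with the highest 6 h mean. The lower row holds the 4 with the largest ratio of 6 h to 0 h among those with at least 10 CPM in each 6 h library. IDs are drawn without their TRINITY_ prefix and each panel has its own axis from 0. In 6 of the 8 panels the 12 h libraries reach into the range of the 6 h libraries, and replicate 1 is the highest 6 h library in 5.

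Agreement among libraries was partial, as the rule used means alone. The 3 libraries at 6 h all lay above the 3 at 0 h in 118 of the 133 features (88.7%), against 14.2% of all tested features. All 3 lay above the 15 other libraries in 17 features (12.8%), against 0.641%. In 80 features (60.2%), against 1.85%, the 6 libraries of 6 h and 12 h all lay above the 9 of 0 h, 24 h and 48 h. The rule used the means of 0 h, 6 h and 48 h for its ratios and those of every time for the place of the peak, so these shares describe the members and are no test.

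The comparison of 24 h with 12 h sets against each other none of the libraries whose ratios chose the features. Those libraries still enter the test, as all 18 libraries share 1 estimate of the spread. At 24 h, 50 of the 133 (37.6%) were called lower and 0 higher, against 2.99% of all tested features called lower and 1.96% higher. A call needed an adjusted p under 0.05 in edgeR's quasi-likelihood test, with Benjamini-Hochberg adjustment over all tested features, and a log2 change of at least 1 in size. The median log2 change of the 133 was −1.25, against −0.06 over all tested features, and the sign was negative in 127. At an unadjusted p under 0.05, 85 were lower (63.9%) and 1 higher, against 12.6% and 9.87% of all tested features. DESeq2 called 59 lower (44.4%) and 1 higher, against 4.88% and 4.14%. Fitted on the 6 libraries of 12 h and 24 h alone, edgeR called 50 lower (37.6%) and 0 higher. Of all features tested then, 3.44% were lower and 3.36% higher. The 24 h libraries all lay below the 12 h libraries in 90 features (67.7%), against 16.5% of all tested features. Leaving out 12 h replicate 3 gave 19 calls, all lower (14.3%, against 0.847% of all features tested then), and leaving out 24 h replicate 1 gave 18 (13.5%, against 1.1%). The rule keeps 12 h and 24 h under 6 h but sets no order between them.

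TRINITY_DN16831_c0_g1_i13_2, of 3448 nucleotides, was called lower at 24 h with the smallest adjusted p of the named features. It had 7.55, 10.5 and 8.19 CPM at 0 h, then 28.3, 24.0 and 30.1 CPM at 2 h, and 91.7, 53.8 and 48.7 CPM at 6 h. At 12 h it had 52.5, 53.4 and 76.8 CPM, at 24 h 6.27, 9.43 and 5.88 CPM, and at 48 h 9.15, 13.1 and 13.1 CPM. The libraries of 2 h lay between those of 0 h and those of 6 h with no overlap, and the 24 h libraries overlapped those of 0 h. Its log2 change at 24 h against 12 h was −3.08 (SE 0.29, adjusted p = 0.00025, edgeR). At 24 h against 2 h it was −1.94 (SE 0.28, adjusted p = 0.00021).

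The other features with the largest called falls were those with steep courses. TRINITY_DN10106_c0_g1_i1_7 changed by −3.09 on the log2 scale at 24 h against 12 h (SE 0.65, adjusted p = 0.013, edgeR), and TRINITY_DN1399_c0_g1_i1_4 by −2.76 (SE 0.70, adjusted p = 0.03, edgeR). Both calls were lost under some alternatives, with the change much as large. For the first, the log2 change was −2.84 (adjusted p = 0.055, edgeR) when 12 h replicate 3 was left out and −3.09 (adjusted p = 0.058, edgeR) when 24 h replicate 1 was. The second lost its call in 5 of 15 alternatives, with an adjusted p up to 0.12 and a log2 change of −2.79 to −2.33 in those 5. TRINITY_DN7823_c0_g1_i2_5 fell by 2.46 (SE 0.36, adjusted p = 0.0025, edgeR) and TRINITY_DN18263_c0_g1_i5_2 by 2.25 (SE 0.39, adjusted p = 0.006, edgeR), and both stayed called in all 15 alternatives. TRINITY_DN11346_c0_g1_i1_8 changed by −0.91 (SE 0.34, adjusted p = 0.12, edgeR) and TRINITY_DN20234_c0_g2_i3_3 by −0.69 (SE 0.40, adjusted p = 0.32, edgeR), neither of which passed.

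**Figure D3:**
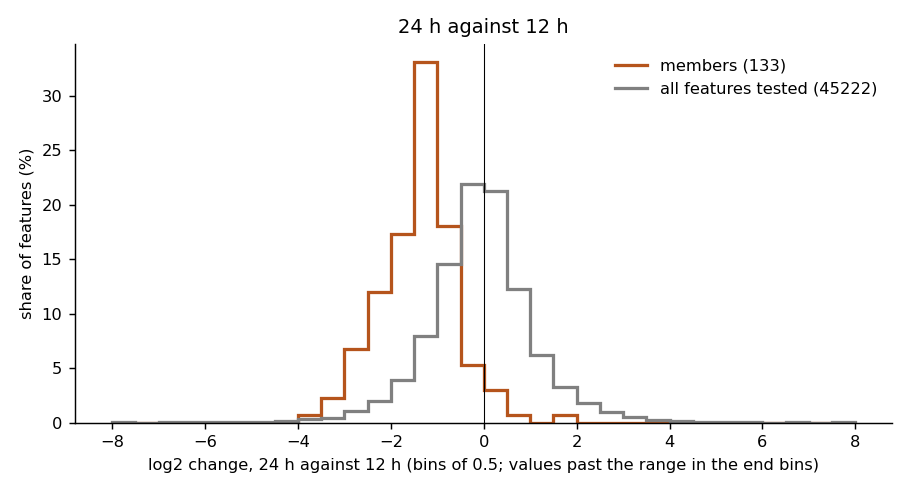
Share of features (%) in bins of the log2 change at 24 h against 12 h from edgeR, for the 133 features and for all 45222 tested. The 133 have a median of −1.25 and all tested features one of −0.06; of the 133, 127 lie below 0.

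At 12 h against 2 h, 48 of the 133 (36.1%) were called higher and 1 lower, against 4.02% of all tested features higher and 3.24% lower. Libraries of 0 h, 6 h and 48 h again enter only the estimate of the spread. Fitted on the 6 libraries of 2 h and 12 h alone, edgeR called 46 of 132 higher (34.8%) and 1 lower. Of all features tested then, 4.81% were higher and 4.48% lower. The median log2 change was 1.05, against −0.02 over all tested features. TRINITY_DN10106_c0_g1_i1_7 rose by 4.43 on the log2 scale (SE 0.70, adjusted p = 0.0017, edgeR) and TRINITY_DN7823_c0_g1_i2_5 by 2.51 (SE 0.36, adjusted p = 0.001, edgeR). The 1 feature called lower, TRINITY_DN16962_c0_g1_i9_2, was named after its values were seen. It had 5.11, 3.33 and 6.10 CPM at 2 h, then 10.9, 9.90 and 6.56 CPM at 6 h, and 1.05, 0.864 and 0.270 CPM at 12 h, so its 12 h libraries lay below those of 2 h and 6 h. Its log2 change at 12 h against 2 h was −2.73 (SE 0.60, adjusted p = 0.01, edgeR). The 49 calls of either sign became 28 when 2 h replicate 1 was left out and 30 when 2 h replicate 3 was. They became 31 when 12 h replicate 2 was left out and 26 when 12 h replicate 3 was. Over all tested features, 3283 calls became 1914, 1722, 1578 and 1587 in the same order.

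At 24 h against 2 h, 6 of the 133 were called higher (4.51%) and 8 lower (6.02%), against 8.14% of all tested features higher and 8.34% lower. The median log2 change was −0.35, against −0.08 over all tested features. One of those called higher, TRINITY_DN15053_c0_g1_i1_2, was named after its values were seen and had 15.1, 43.8 and 92.5 CPM at 24 h, against 5.28, 3.79 and 5.37 CPM at 2 h. The split of calls moved with the method. DESeq2 called 9 higher (6.77%, against 11.6% of all tested features) and 15 lower (11.3%, against 10%). On FPKM, which was not rescaled by TMM, limma with 1 added called 1 higher (0.752%, against 6.36%) and 17 lower (12.8%, against 12.9%). With 0.1 added it called 2 higher (1.5%, against 6.32%) and 19 lower (14.3%, against 14.9%). In each, the share called lower was near that of all features, and the share called higher was below it. The 14 calls became 5 when 2 h replicate 3 was left out and 9 when 24 h replicate 1 was. Over all tested features, 7452 calls became 5579 and 5868.

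At 2 h the ratio to 0 h spread to both sides of 1, with few calls. The 2 h mean was at least 1.5 times the 0 h mean in 69 of the 133, at least 3 times in 12, and below the 0 h mean in 34. Without 0 h replicate 2 and 2 h replicate 2 these counts were 62, 24 and 40, and the median ratio was 1.37 in place of 1.53. At 2 h against 0 h, 2 features were called higher (1.5%) and 0 lower, against 0.502% of all tested features higher and 0.214% lower. At an unadjusted p under 0.05, 42 were higher (31.6%) and 3 lower, against 9.4% and 5.63% of all tested features. DESeq2 called 10 higher (7.52%) and 2 lower, against 2.83% and 1.68%. The 2 called were TRINITY_DN16831_c0_g1_i13_2, with a log2 change of 1.65 (SE 0.27, adjusted p = 0.018, edgeR), and TRINITY_DN14229_c0_g1_i2_4, named after its values were seen. The second had 11.4, 9.72 and 15.9 CPM at 2 h, against 4.94, 4.26 and 4.05 CPM at 0 h, a log2 change of 1.48 (SE 0.23, adjusted p = 0.013, edgeR). Single libraries decided this count. Without 0 h replicate 2 there were 13 calls, all higher (9.77%, against 4.07% of all features tested then). Leaving out 2 h replicate 2 gave 6 higher (4.51%, against 1.98%), and leaving out 2 h replicate 1 gave 1 (0.752%, against 0.0784%). With 0 h replicate 2 and 2 h replicate 2 both left out, 19 were higher (14.3%) and 0 lower, against 6.96% and 5.48% of all features tested. None was left when any one of 0 h replicate 1, 0 h replicate 3 and 2 h replicate 3 was taken out (0 calls each). Few calls were left over all features tested then, with 0.0107%, 0.0538% and 0.0276% called higher in the same order. The rule shares the 0 h libraries with this comparison.

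The features with the highest ratio of 2 h to 6 h, among those with at least 10 CPM in each 6 h library, had uneven libraries. TRINITY_DN510_c0_g1_i1_3, of 2408 nucleotides, had 8.29, 139 and 2.13 CPM at 0 h, then 255, 34.5 and 243 CPM at 2 h, and 68.4, 167 and 332 CPM at 6 h. At 12 h it had 197, 151 and 157 CPM, at 24 h 99.1, 112 and 80.0 CPM, and at 48 h 55.4, 41.2 and 28.7 CPM. Replicate 2 was the high library at 0 h and the low one at 2 h; in the other two replicates, 2 h was far above 0 h. TRINITY_DN12327_c0_g1_i3_2, of 6164 nucleotides, had 15.6, 12.8 and 10.4 CPM at 0 h and 65.4, 18.3 and 51.0 CPM at 2 h, and then 27.9, 55.4 and 56.0 CPM at 6 h. Its highest library was at 2 h, although its highest mean was at 6 h. TRINITY_DN11734_c0_g1_i2_5, named after its values were seen, had the lowest ratio of 2 h to 0 h. It had 12.3, 1.71 and 2.01 CPM at 0 h, then 0.0852, 0.229 and 0.386 CPM at 2 h, and 164, 14.4 and 14.2 CPM at 6 h. At 12 h it had 1.64, 72.5 and 68.7 CPM, so replicate 1 was the highest of its 3 libraries at 6 h and the lowest at 12 h.

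At the other end, some features were as high at 12 h as at 6 h. TRINITY_DN13823_c0_g1_i5_2, of 3663 nucleotides, had 26.3, 11.4 and 15.3 CPM at 0 h, then 129.9, 45.1 and 57.6 CPM at 6 h, and 47.3, 80.4 and 102 CPM at 12 h. Apart from 6 h replicate 1, its 6 h libraries were within the range of the 12 h libraries or just below it. TRINITY_DN18195_c0_g1_i4_2, of 4900 nucleotides, had 36.9, 18.5 and 30.4 CPM at 0 h, then 116, 77.1 and 75.4 CPM at 6 h, and 99.1, 83.5 and 79.7 CPM at 12 h. For these features the order of 6 h and 12 h lies within the spread of the libraries.

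Comparisons that share libraries with the rule are given as description. At 12 h against 0 h, 82 of the 133 (61.7%) were called higher and 0 lower, against 10.5% and 6.68% of all tested features. At an unadjusted p under 0.05, 101 were higher (75.9%) and 1 lower, against 19.2% and 15.8%. DESeq2 called 93 higher (69.9%) and 0 lower, against 12.9% and 9.74%. The 3 libraries at 12 h all lay above the 3 at 0 h in 102 features, against 22.1% of all tested features. At 24 h against 0 h, 3 were called higher (2.26%) and 0 lower by edgeR, against 14.8% and 12.4% of all tested features. With an unadjusted p under 0.05, 14 were higher (10.5%) and 1 lower, against 22.2% and 21.1%. DESeq2 called 7 higher (5.26%) and 0 lower, against 17.3% and 14.7%. The 3 were TRINITY_DN20234_c0_g2_i3_3, TRINITY_DN17136_c0_g1_i3_2 and TRINITY_DN15364_c0_g3_i1_5, the last named after its values were seen. It had 2.16, 3.47 and 3.07 CPM at 24 h, against 1.02, 2.16 and 0.843 CPM at 0 h, a log2 change of 1.12 (SE 0.40, adjusted p = 0.04, edgeR). The count became 7 when 0 h replicate 2 was left out, 1 when 0 h replicate 3 was and 9, of which 7 were higher and 2 lower, when 24 h replicate 3 was. Of all features tested then, 15.9%, 12% and 14% were called higher in the same order, and in the last case 12.6% lower. In the comparisons the rule itself uses, 95 were called higher at 6 h than at 0 h and 0 lower, against 4.67% and 1.73% of all tested features. With 0 h replicate 3 left out, 60 were called higher (45.1%), against 1.96% of all features tested then. At 48 h, 111 were called lower than at 6 h and 0 higher, against 14.5% and 11% of all tested features. Nothing is read from these counts, since the rule fixes their direction.

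One library carried much of the peak. Replicate 1 at 6 h was the highest of the 18 libraries in 95 of the 133 features, 6 h replicate 2 in 20 and 6 h replicate 3 in 14; the 4 left had their highest library at 2 h, 12 h or 24 h. Of tested features with at least 1 CPM in a library, 10.9% were highest in 6 h replicate 1, 2.00% in replicate 2 and 3.23% in replicate 3. Replicate 1 was at least 2 times both other 6 h libraries in 38 features, replicate 2 in 2 and replicate 3 in 0. The median ratio to the 0 h mean was 5.89, 3.35 and 3.77 in the 3 libraries at 6 h, and 2.63, 3.01 and 3.69 in those at 12 h. Summed over the 133, the level was 7525, 4667 and 5401 CPM at 6 h, against 1525, 1379 and 1133 CPM at 0 h. All 3 sums at 6 h were thus above every sum at 0 h, with replicate 1 the highest.

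The last digit of the ID, which the rule did not use, went with the library in which a feature was highest across the whole assembly. Shares here are of tested features with at least 1 CPM in a library. Of those ending in 1, 23.9% were highest in 0 h replicate 2. Of those ending in 3, 31.2% were highest in 0 h replicate 3, and of those ending in 7, 28.4% in 48 h replicate 1. Over all digits, 7.92% to 8.82% were highest in each of 0 h replicates 2 and 3 and 48 h replicate 1. For the digit 2 the library was 6 h replicate 1, with 38.3%, against 10.9% over all digits. For the digit 6 it was 24 h replicate 2, with 24.4%, against 7.93%. The largest shares were lower for the digits 4, 5, 8 and 9, at 13.9%, 16.8%, 18.4% and 18.4%. They were in 12 h replicate 2, 24 h replicate 1, 48 h replicate 3 and 2 h replicate 2. Over all digits these libraries held 3.45%, 4.53%, 5.35% and 4.89%. Among features chosen for a peak at 6 h, the digit was 2 in 61 of the 133 (45.9%), against 12.3% of all tested features and 13.3% of those with at least 5 CPM at 6 h. The other digits held between 1 feature, for the digit 1, and 15, for the digit 3. Of the 61 ending in 2, 50 were highest in 6 h replicate 1. The median ratio to 0 h in the 3 libraries at 6 h was 7.50, 2.93 and 3.53 for features ending in 2, and 5.06, 3.64 and 3.97 for the rest. What the digit stands for is not given in the sources used here, and its part in the result was not tested. At 24 h against 12 h, 22 of the 61 ending in 2 (36.1%) and 28 of the 72 others (38.9%) were called lower.

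**Figure D4:**
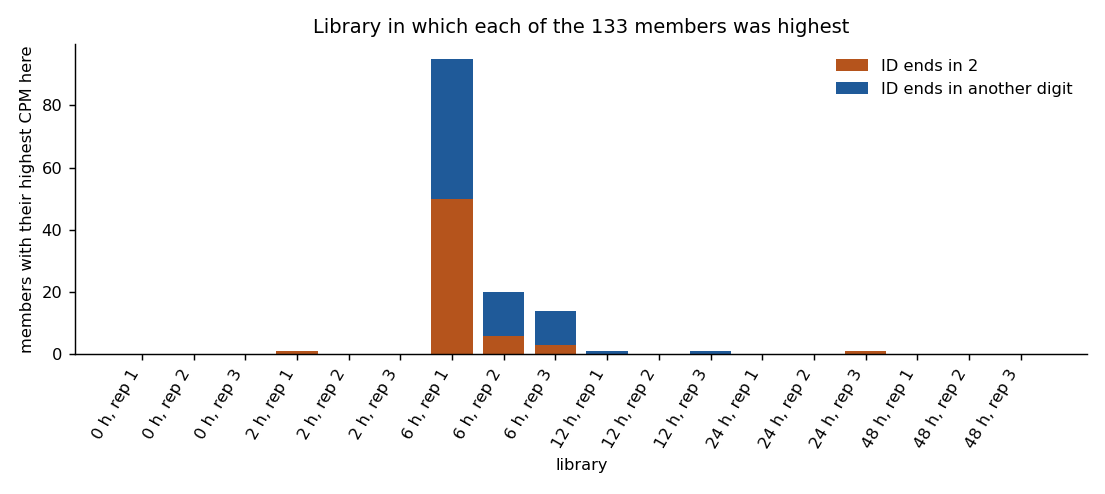
Number of the 133 features with their highest CPM in each of the 18 libraries, split by whether the ID ends in 2 or in another digit. The bar of 6 h replicate 1 holds 95 features, 50 of them ending in 2, and those of 6 h replicates 2 and 3 hold 20 and 14.

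The rule was applied again with each library left out. Without 6 h replicate 1 it chose 86 features, of which 58 were among the 133, and without 6 h replicate 2 it chose 207, of which 119 were. For a choice that shares no library with what is measured, the libraries of one replicate number were left out at all 6 times. The 114 features chosen without replicate 1 had a median ratio of 6 h to 0 h of 2.17 in the libraries left out, against 4.2 in those used, and 60 of them (52.6%) reached 2, against 22.6% of all tested features. The 204 chosen without replicate 2 had 2.59 in the libraries left out, against 4.50, and 132 (64.7%) reached 2, against 21.8%. The 165 chosen without replicate 3 had 4.0, against 4.89, and 141 (85.5%) reached 2, against 23% of all tested features. The ratio was thus lower in the libraries left out than in those used, and the median over all tested features was 1.00 to 1.02. Of the 86 chosen without 6 h replicate 1, 21 (24.4%) were called lower at 24 h against 12 h and 14 (16.3%) higher at 12 h against 2 h, with medians of −0.93 and 0.47 on the log2 scale. Both shares were above those of all tested features given before, and below those of the 133.

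**Figure D5:**
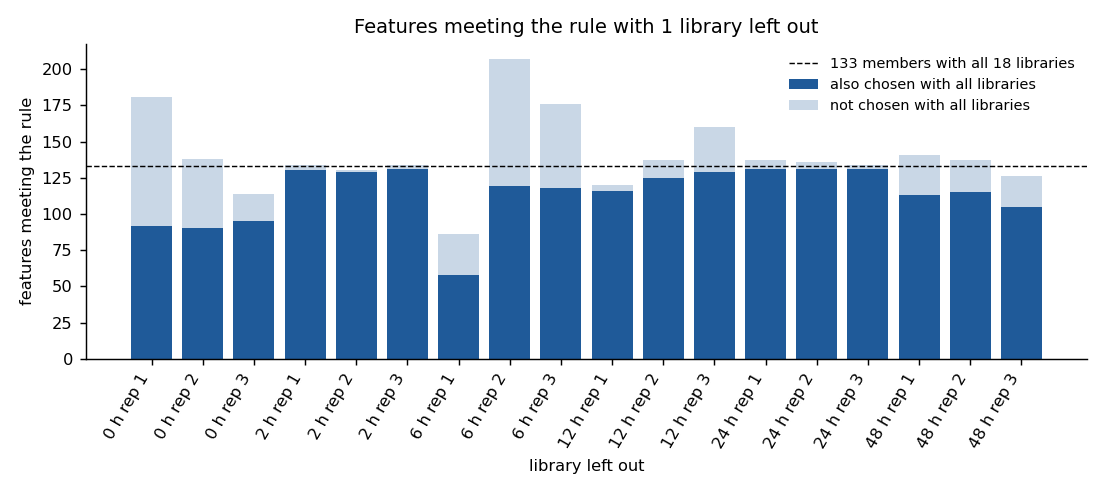
Number of features the rule chooses when each of the 18 libraries is left out, with the number shared with the 133. The counts run from 86 without 6 h replicate 1, with 58 shared, to 207 without 6 h replicate 2, with 119 shared.

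Of the 133, 17 met the rule whichever library was left out, and 106 met it in at least 15 of the 18 cases. TRINITY_DN17721_c1_g3_i7_6, of 2165 nucleotides, is one of the 17 and was named after its values were seen. It had 11.2, 12.9 and 12.5 CPM at 0 h, then 12.5, 8.07 and 10.4 CPM at 2 h, and 81.2, 138 and 73.9 CPM at 6 h. At 12 h it had 50.3, 74.8 and 64.9 CPM, at 24 h 20.1, 24.5 and 24.9 CPM, and at 48 h 18.4, 15.1 and 14.4 CPM. The 6 h libraries spread from 73.9 to 138 CPM, and the lowest of them was just under the highest 12 h library. The 2 h libraries were at or near the 0 h level, and the 24 h libraries lay above every library of 0 h, 2 h and 48 h. Its log2 change was −1.45 at 24 h against 12 h (SE 0.24, adjusted p = 0.005, edgeR) and 2.62 at 12 h against 2 h (SE 0.25, adjusted p = 0.00013, edgeR). TRINITY_DN6115_c0_g1_i2_9, also one of the 17 and named after its values were seen, had 19.1, 9.85 and 14.7 CPM at 0 h, then 21.5, 68.4 and 36.1 CPM at 2 h, and 82.9, 130.6 and 129.6 CPM at 6 h. Here replicate 1 was the lowest library at 6 h, and all 2 h libraries were above all 0 h libraries.

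Cut before their _i part, the IDs of the 133 give 131 different stems, and 2 stems hold a pair each. Whether a stem stands for a single gene was not tested. TRINITY_DN13577_c0_g1_i1_2 and TRINITY_DN13577_c0_g1_i1_3, a pair named after its values were seen, share all but the last digit and could share reads. The longer, of 2661 nucleotides, had 15.2, 6.71 and 5.50 CPM at 0 h, then 95.8, 17.9 and 16.7 CPM at 6 h, and 9.83, 50.1 and 58.3 CPM at 12 h. The shorter, of 698 nucleotides, had 91.3, 47.0 and 44.8 CPM at 0 h, then 314, 149 and 160.0 CPM at 6 h, and 146, 192 and 234 CPM at 12 h, and its 371 FPKM at 6 h was the highest level per length among the 133. In both, replicate 1 was the highest library at 6 h and the lowest at 12 h. The lengths of this pair show that an ID that is the same up to the last digit can name different sequences. The 171 other tested features with an ID stem of one of the 133 had a median ratio of 6 h to 0 h of 0.980, against 1.00 over all tested features, and 8 reached 3. None shared the last digit, and no tested feature shared both stem and last digit with another. These features are thus not shown to come from the genes of the 133, and reads can be split between such features.

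The limits of the rule cut through a continuum. Of 6600 features highest at 6 h, 3484 reached 5 CPM and 466 of these reached 3 times the 0 h mean. At 48 h, 139 of the 466 were above the range of 0.67 to 1.5 times 0 h, 194 were below it, and the 133 were inside. Just above the ratio of 3 were TRINITY_DN11346_c0_g1_i1_8 and TRINITY_DN7029_c0_g1_i1_3, at 3.01 and 3.02, and just below it were TRINITY_DN25148_c0_g1_i1_3 and TRINITY_DN13989_c0_g1_i1_5, both at 2.99. TRINITY_DN25148_c0_g1_i1_3, left out, had an even course, with 12.0, 7.74 and 10.0 CPM at 6 h against 3.35, 3.53 and 3.05 CPM at 0 h. The 133 had a median length of 2135 nucleotides (332 to 7174), beside the 2249 of all tested features with at least 5 CPM at 6 h. All 133 had passed the filter on low counts, as the rule asks, and 142 met the other limits with no filter, 130 of them in common.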

How the data were processed

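Groups and replicate numbers came from the sample titles and labelled times. The main values were estimated counts deposited by the authors without scaling between libraries, 89.6% of them not whole; per the feature IDs they belong to Trinity transcripts assembled without a genome. The authors also deposited FPKM for the same features. No name or version of an aligner or counting tool is given in the sources used here. 0 columns of samples were left unused.

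Counts were rounded, filtered with filterByExpr by time (45222 features kept) and scaled by TMM. One model of the 6 times was fitted to 18 libraries (edgeR 4.0.16 in R 4.3.3), and each pair of times was compared by the quasi-likelihood test, with Benjamini-Hochberg adjustment over all features kept. The common dispersion was 0.244. CPM was taken on library sizes scaled by TMM, and an SE as the log2 change divided by the root of F. Lengths are count over FPKM, rescaled by library total. On simulated counts of 44004 features for 24 h against 12 h, the fit recovered 49.3%, 74.6% and 89.4% of features changed by 1.5, 2 and 3 on the log2 scale, with 5 false calls.

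The members, the lists and the alternatives were chosen with earlier results of these data known. Features named in the text are the 4 with the highest 6 h mean, the 4 with the largest ratio of 6 h to 0 h, the 3 with the largest called fall at 24 h against 12 h, the 2 each with the highest ratio of 2 h and of 12 h to 6 h, and the 2 nearest to a ratio of 3 on each side. The lists of largest and highest ratios asked for at least 10 CPM in each 6 h library; the last list did not. Others are said to be chosen after their values were seen. Alternatives were the DESeq2 1.42.0 test and size factors, limma 3.58.1 on log2 FPKM with 1 or 0.1 added, no filter or one of 10 CPM in 3 libraries, other limits in the rule, the replicate number as a block, the 6 libraries compared alone, and libraries left out. Added after the data had been seen were members with IDs not ending in 2 and members chosen without 6 h replicate 1. Tables and figures used Python 3.11.15, pandas 2.3.3, scipy 1.17.1 and matplotlib 3.10.9.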

Additional observations from a re-analysis of the deposited data

How the results depend on the processing

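With each library left out in turn, the number of features chosen was 86 to 207. The number called was 18 to 46 at 24 h against 12 h, 26 to 48 at 12 h against 2 h, 5 to 18 at 24 h against 2 h, 0 to 13 at 2 h against 0 h, 59 to 80 at 12 h against 0 h, 1 to 9 at 24 h against 0 h, 60 to 85 at 6 h against 0 h and 92 to 106 at 48 h against 6 h. Calls over all tested features moved too, in the same order by 609 to 2542, 1578 to 3007, 4804 to 8059 and 5 to 2834. For the last 4 comparisons they were 5086 to 9222, 9412 to 13310, 1204 to 4208 and 9094 to 11384. The rule chose 282 features at 2 times 0 h, 75 at 4 times, and 215 with 48 h at 0.5 to 2 times 0 h. On FPKM means it chose 174, of which 57 were among the 133, and on the median of 3 libraries 103, with 54 shared. At 24 h against 0 h, 7 were called with no threshold on the fold, 0 in the 6 libraries alone, 7 by DESeq2, 0 by limma on log2(FPKM + 1), and 1 on log2(FPKM + 0.1). Over all tested features the calls were then 14860, 8952, 14505, 13514 and 15049, against 12302 in the main fit. At 2 h against 0 h the 6 libraries alone gave 0 and DESeq2 12, while over all tested features they gave 1 and 2042, against 324. At 24 h against 2 h the 6 libraries alone gave 9 and DESeq2 24, with 6035 and 9758 calls over all tested features, against 7452. At 6 h against 0 h the 6 libraries alone gave 23, with 374 calls over all tested features, against 2894. For features chosen without 6 h replicate 1, the share called was 24.4% in place of 37.6% at 24 h against 12 h, 17.4% in place of 36.8% at 12 h against 2 h, 2.33% in place of 1.5% at 2 h against 0 h, and 3.49% in place of 2.26% at 24 h against 0 h. Without both 0 h replicate 2 and 2 h replicate 2, the number called was 57 at 24 h against 12 h, 45 at 12 h against 2 h, 15 at 24 h against 2 h, 19 at 2 h against 0 h, 78 at 12 h against 0 h, 8 at 24 h against 0 h, 94 at 6 h against 0 h and 115 at 48 h against 6 h. Calls over all tested features were then, in the same order, 3088, 3539, 7393, 5795, 10200, 13966, 5358 and 12854. In each case the cause was not tested. No change of a named feature at 24 h against 12 h turned its sign; over 15 alternatives for each of them, 16 values lost their call and 2 gained one, against 192 that kept their side of the threshold.

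With the replicate number as a block, 44 were called at 24 h against 12 h and 42 at 12 h against 2 h, and no count moved by more than 1.5 times. Over all tested features the block gave 1870 and 2802 calls. Over 45 pairs of libraries with the same number, the correlation of deviations from the group means was −0.37 to 0.198 with a mean of −0.026. Pairs with different numbers had a mean of 0.013. For 2 of 18 libraries, the mean correlation was highest with the libraries of their own number. A pairing by number was thus not seen, which does not show that there was none. With 3 libraries a time, a change that did not pass is not shown to be absent.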
